A study of Mus musculus with 6 samples.

Results

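Transcripts of 40 antioxidant, glutathione and NRF2-target genes were compared between wild-type (WT) MEFs, fibroblasts grown from mouse embryos, and MEFs lacking Yme1l (Yme1l-/-). The genes were taken by symbol from the rows of the deposited count table, and all 40 were found among its 51499 rows. The cells are SV40-immortalized MEFs with floxed Yme1l alleles. YME1L, the product of Yme1l, is an i-AAA protease that degrades proteins at the inner mitochondrial membrane, and the comparison asks how its loss changes gene expression. WT cells carry the genotype Yme1l fl/fl, and the Yme1l-/- cells are descended from the same kind of floxed cells after Cre recombinase. Individual clones were grown up after Cre and sorted by genotype, so the effect of the genotype and of the clone cannot be told apart here. Poly(A)-selected RNA of 3 independent cultures per genotype was sequenced.

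NRF2, encoded by Nfe2l2, is a transcription factor that the adaptor KEAP1 normally hands over for degradation. Electrophiles and oxidants modify KEAP1, NRF2 then accumulates, and with small MAF proteins it binds antioxidant response elements (AREs) in genes for quinone reduction, haem breakdown, glutathione and thioredoxin. NRF2 is therefore controlled largely at the level of the protein, which RNA sequencing does not measure. Superoxide released by the respiratory chain is turned into hydrogen peroxide by superoxide dismutases, and the peroxide is removed by catalase, peroxiredoxins and glutathione peroxidases. Mitochondria, cytosol and the secretory pathway each hold their own set of these enzymes.

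The ARE core, searched as TGACNNNGC on both strands, was looked up in windows from 250 bases before to 50 bases after RefSeq starts (GRCm38.p6), because many of the genes are known as NRF2 targets. Such a window was given for 33 of the 40 genes, and 9 of them (27.3%) held the core, against 14.0% of the 27025 genes with a window. A match of these letters is a description and not a binding site, and for Txnrd1, G6pdx and Mgst1 it lies before a RefSeq start inside the gene as annotated by GENCODE. The windows of 6 genes of the pathway are shown 5′ to 3′ on the strand of the match, with the core in capitals, and the core of Prdx1 also overlaps the AP-1 motif TGACTCA.
G6pdx, chrX:74428918-74428947 (+): ggcgtgtgcttTGACTGAGCtgacccgcct
Gclm, chr3:122245413-122245442 (-): ctcgtgagagtTGACGGTGCgcccgggagc
Nfe2l2, chr2:75704884-75704913 (-): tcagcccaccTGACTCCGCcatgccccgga
Prdx1, chr4:116685456-116685485 (-): cctacgggggaTGACTCAGCgctttccctg
Txnrd1, chr10:82859104-82859133 (-): ccgtgtcagaaTGACAAAGCaaaaatccag
Mgst1, chr6:138140461-138140490 (-): accccgcctccTGACCGTGCcaagccccgc

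Libraries held 33180867 to 34012520 fragments in WT and 34624075 to 49351107 in Yme1l-/-. Levels are stated in CPM, the counts in 1000000 fragments after scaling of the library size, with the 3 libraries of a genotype in the order of their numbers. Yme1l1, the targeted gene, fell from 188.7 CPM in WT to 20.7% of that level. Of 10 fibroblast markers, 1 was higher and 6 were lower in Yme1l-/- among 8 tested, beside 33.6% and 34.1% of all loci tested. Their summed level was 10839.4 to 11402.2 CPM in WT and 6646.1 to 7133.4 CPM in Yme1l-/-. Vim, Fn1, Col1a1 and Col1a2 were abundant in both genotypes, whereas Thy1 had at most 6 and Lum at most 11 fragments per library. Col3a1 fell from 159.5 to 28.65 CPM and Dcn from 3.66 to 0.57 CPM, calls kept in 9 and 8 of 13 alternatives. In both, WT replicate 2 stood far above the other WT libraries, at 301.2 and 7.85 CPM. The 6 epithelial markers summed to 33.08 to 35.1 CPM in WT and 0.373 to 0.686 CPM in Yme1l-/-, and in WT nearly all of this was Krt18. The 5 neural markers with a row summed to 23.84 to 28.91 CPM in WT and 7.72 to 10.03 CPM in Yme1l-/-, most of it Map2, while Olig2 was at 0. The 8 leukocyte markers summed to 2.36 to 2.93 CPM in WT and 4.07 to 4.36 CPM in Yme1l-/-, with Adgre1 and Tyrobp at 0. Most of this sum was Cd14, called higher at a log2 fold change of 0.37, a call kept in 5 of 13 alternatives. Csf1r, Itgam, Lyz2 and Fcer1g, with at most 29 fragments per library, also had every Yme1l-/- library above WT, and Ptprc overlapped. The 5 endothelial markers summed to 0.949 to 1.56 CPM in WT and 1.94 to 2.17 CPM in Yme1l-/-. The part of these shifts in the results was not tested. In bulk RNA, fewer cells of a type and less RNA per cell cannot be told apart.

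Of the 40 genes, 38 passed the filter on low counts and 28 of these (73.7%) were called (adjusted p below 0.05, quasi-likelihood test of edgeR), 14 higher and 14 lower in Yme1l-/-. Over all 13867 loci tested the share called was 67.7%, with 33.6% higher and 34.1% lower, so the members were called about as often as other loci. The libraries of the genotypes did not overlap for 27 of the 38 genes, against 71.9% of all loci. In 14 of them every Yme1l-/- library was above WT (35.9% of all loci) and in 13 every one was below (36% of all loci). The median log2 fold change of the members was 0.00, and that of all loci was -0.004. At least 2-fold calls numbered 8 among the members, 4 in each direction, against 17.7% of all loci. Gpx7, among the lower, passed the filter only through the WT libraries. The remaining 20 calls were smaller than 2-fold. Summed over all 40 genes, the level lay between 3503.4 and 3816.2 CPM in every library, and the genotypes overlapped. The shares called and the medians of the members were thus near those of all loci, and the results are carried by single genes.

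**Figure D1:**
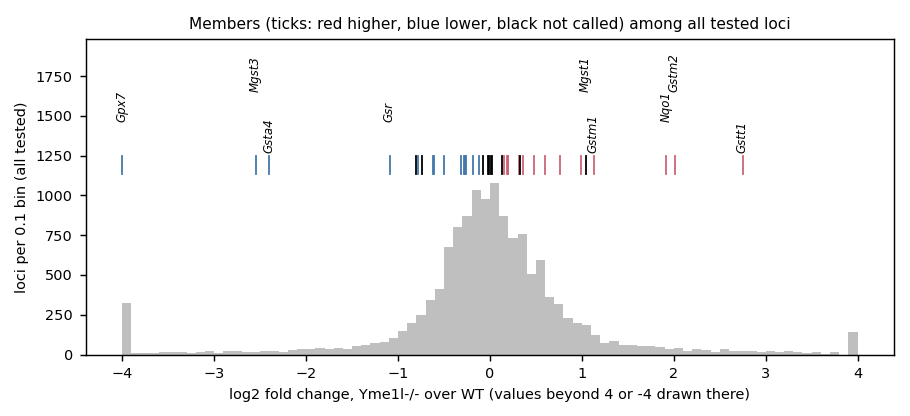
Histogram of the log2 fold changes (Yme1l-/- over WT) of all 13867 tested loci, with a tick for each of the 38 tested members coloured by its call. Most members lie in the centre of the distribution, and Gstt1, Gstm2, Nqo1 and Gstm1 on the right and Gpx7, Mgst3, Gsta4 and Gsr on the left are the 2-fold calls; Mgst1, also labelled, was not called.

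Of the regulators, the transcript of NRF2 itself was not called and that of KEAP1 was lower by less than 2-fold. Nfe2l2 was at 94.95, 111.2 and 95.98 CPM in WT and 95.7, 99.97 and 101.6 CPM in Yme1l-/-. The genotypes overlapped, and the log2 fold change was -0.02 ± 0.06 (SE). Keap1 was at 75.62, 73.16 and 76.5 CPM in WT and 61.32, 63.66 and 59.92 CPM in Yme1l-/-, so that every Yme1l-/- library was lower. Its log2 fold change was -0.28 ± 0.05 (SE, edgeR adjusted p = 1.9e-04). The loci of its chromosome 9 had a median log2 fold change of -0.36, and with chromosome medians removed Keap1 was at 0.07 and not called. That removal left 62.8% of all loci called, and 14 members higher and 11 lower. Medians of chromosomes ranged from -0.438 (chromosome 12) to 0.592 (chromosome 15), and the members lie on 17 chromosomes. Among calls that stayed, removal moved the log2 fold change by more than 1.5 times for Prdx2 (-0.50 to -0.18), Prdx4 (-0.62 to -0.41), Prdx5 (-0.18 to -0.30), Sod2 (0.36 to 0.20), Txn2 (0.99 to 0.39), G6pdx (0.20 to 0.41) and Gclc (0.15 to 0.51).

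The quinone and haem enzymes both rose. Nqo1 (chromosome 8, 107388225 to 107403206 in GRCm38) encodes a flavoprotein that reduces quinones to hydroquinones and is widely used as a readout of NRF2. Its level was 4.35, 4.43 and 5.15 CPM in WT and 16.89, 16.98 and 18.78 CPM in Yme1l-/-, which is 3.78-fold higher with no overlap (log2 fold change 1.92 ± 0.10 SE, edgeR adjusted p = 1.8e-08). A log2 fold change of at least this size, up or down, was found in 8.92% of all loci tested. Hmox1, which encodes the inducible haem oxygenase, was at 36.22, 40.05 and 35.25 CPM in WT and 62.38, 63.38 and 63.28 CPM in Yme1l-/-. The rise was 1.70-fold (0.76 ± 0.06, log2 fold change ± SE, edgeR adjusted p = 3.3e-07). Both genes lie on chromosome 8, which as a whole was lower, with a median of -0.32.

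The genes for making and recycling glutathione did not move together. Gsr (chromosome 8, 33652523 to 33698163), encoding the glutathione reductase that regenerates glutathione from its disulfide, was at 129.3, 135.6 and 121.1 CPM in WT and 59.67, 60.75 and 61.34 CPM in Yme1l-/-. The Yme1l-/- libraries were tightly grouped below WT, at a log2 fold change of -1.09 ± 0.05 (SE, edgeR adjusted p = 9.6e-09), or 2.12-fold lower. With the median of chromosome 8 removed it was at -0.77 and still called. Gclc, the catalytic subunit of glutamate-cysteine ligase that limits glutathione synthesis, rose from 58.27 ± 1.84 to 64.71 ± 3.22 CPM (SD, n = 3), by 0.15 ± 0.05 on the log2 scale (SE, edgeR adjusted p = 0.0214). When a single library was left out, Gclc lost its call in 4 of 6 cases (WT replicate 1 or 2, Yme1l-/- replicate 2 or 3), at 0.13 to 0.14 with an edgeR adjusted p of 0.0695 to 0.0787. Gss, the glutathione synthetase, was at 56.13 ± 0.614 and 57.05 ± 2.19 CPM (SD, n = 3) and was not called. G6pdx, whose enzyme supplies NADPH for glutathione reduction through the pentose phosphate pathway, rose by 0.20 ± 0.04 on the log2 scale (SE, edgeR adjusted p = 0.00182).

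Gclm, the modifier subunit of the same ligase, could not be read from its row. The row held 332.8, 91.21 and 163.5 CPM in WT and 106.1, 103.5 and 126.3 CPM in Yme1l-/-. WT replicate 1 was far above all others, and the log2 fold change was -0.81 ± 0.54 (SE, edgeR adjusted p = 0.254). The coefficient of variation in WT was 63.3%, which 5 of the 2309 loci within 2-fold of its WT level reached, where the median was 3.64%. The deposited comparison table lists this locus under a further Ensembl gene, the processed pseudogene Gm6061 (chromosome 3, 122256728 to 122257219), which lies within Gclm (122245557 to 122270732). Of the 393 windows of 100 bases in Gm6061, all 393 occur exactly in transcripts of other annotated genes, 13 genes in number. Among these are Gm17494, annotated at the same place on the other strand, with all 393, and Ppia, the abundant cyclophilin A gene, with 74.6%. Ppia itself was at 789.7, 275.2 and 323.5 CPM in WT and 410.0, 508.9 and 303.5 CPM in Yme1l-/-. Both rows were highest in WT replicate 1 and lowest among the WT libraries in replicate 2, but their order in Yme1l-/- differed. Which of these genes gave fragments to the Gclm row was not tested. Without WT replicate 1 the log2 fold change of the row was -0.19, also not called.

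**Figure D2:**
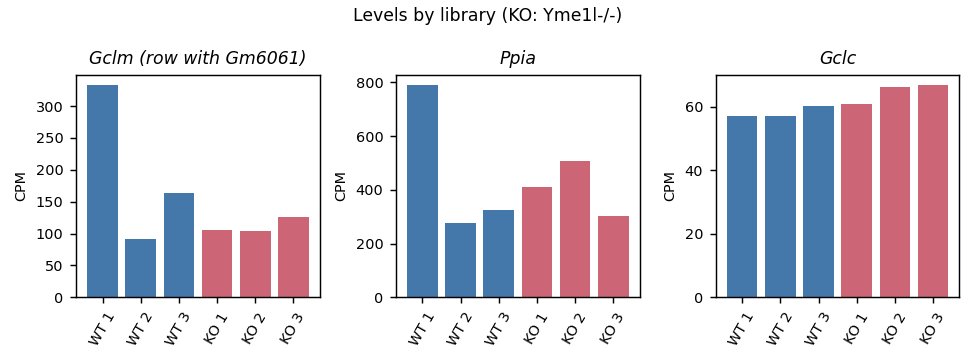
Bars give the CPM of the rows of Gclm (with the pseudogene Gm6061), Ppia and Gclc in each of the 6 libraries, each panel with its own axis from 0. The Gclm and Ppia rows peak in WT replicate 1 at 332.8 and 789.7 CPM, whereas Gclc stays between 57.21 and 66.85 CPM.

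The transcripts of the mitochondrial and the cytosolic thioredoxin went in opposite directions. Thioredoxins reduce protein disulfides and are themselves reduced by thioredoxin reductases, which are selenoproteins. Txn2 (chromosome 15, 77915047 to 77929006), the mitochondrial thioredoxin, was at 110.7, 101.7 and 100.3 CPM in WT and 218.8, 197.6 and 203.1 CPM in Yme1l-/-. It rose 1.98-fold (0.99 ± 0.05, log2 fold change ± SE, edgeR adjusted p = 3.8e-08). Txn2 lies on chromosome 15, which had the highest median of all chromosomes, and with that median removed it was at 0.39 and still called. Txn1, the cytosolic thioredoxin, was at 330.4, 319.1 and 314.3 CPM in WT and 269.1, 247.5 and 253.9 CPM in Yme1l-/-. It fell by 0.32 on the log2 scale (edgeR adjusted p = 6.9e-05). Txnrd1, the cytosolic reductase, rose from 430.1 ± 1.53 to 536.2 ± 7.81 CPM (SD, n = 3), by 0.32 ± 0.04 on the log2 scale (SE, edgeR adjusted p = 4.1e-05). The median of its chromosome 10 was close to that, at 0.30, and with it removed Txnrd1 was at 0.02 and not called. Srxn1, the sulfiredoxin that repairs overoxidized peroxiredoxins, rose by 0.20 ± 0.05 on the log2 scale (SE, edgeR adjusted p = 0.0023).

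Txnrd2, the mitochondrial thioredoxin reductase, was close to the floor and was not tested. Its row held 3, 1 and 2 fragments in WT against 2, 39 and 4 in Yme1l-/-. A single Yme1l-/- library thus stood out. The authors' FPKM was 0.275 in WT and 0.395 in Yme1l-/-, a smaller difference than in the counts. Whether the row holds all Txnrd2 fragments was not tested.

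All 6 peroxiredoxins were called, 1 higher and 5 lower, where 67.7% of all loci were called and 34.1% were lower. These thiol peroxidases are among the most abundant antioxidant enzymes of a cell. The higher one was Prdx3, the mitochondrial peroxiredoxin that thioredoxin 2 reduces, at 77.85, 70.77 and 71.15 CPM in WT and 116.0, 109.6 and 108.3 CPM in Yme1l-/-. It rose 1.52-fold (0.60 ± 0.05, log2 fold change ± SE, edgeR adjusted p = 1.5e-06). Prdx4, which works in the endoplasmic reticulum (ER) and is secreted, was at 129.2, 123.4 and 128.8 CPM in WT and 95.16, 77.13 and 76.94 CPM in Yme1l-/-. It fell by 0.62 on the log2 scale (edgeR adjusted p = 3.6e-05). Prdx2, a cytosolic enzyme, went from 216.8 ± 3.39 to 153.3 ± 5.51 CPM (SD, n = 3) at -0.50 ± 0.04 (log2 fold change ± SE, edgeR adjusted p = 1.2e-06). Prdx6, which also has phospholipase activity, was at -0.27 ± 0.05, Prdx5, found in mitochondria, peroxisomes and cytosol, at -0.18 ± 0.06, and Prdx1 at -0.12 ± 0.05 (log2 fold change ± SE). The calls of Prdx1 and Prdx5 were fragile, whereas Prdx6 kept its call in 12 of 13 alternatives. Prdx1 was called in 6 of 13 alternatives and Prdx5 in 8 of 13. Leaving out WT replicate 1 or 2 or Yme1l-/- replicate 2 or 3 was enough to lose either call, with Prdx1 then at -0.12 to -0.10 and Prdx5 at -0.17 to -0.14. Upper-quartile scaling ended both as well, at -0.06 for Prdx1 and -0.12 for Prdx5, and the libraries of Prdx5 overlapped. In addition, with chromosome medians removed Prdx1 and Prdx6 were at -0.02 and -0.11 and not called. For Prdx5, 26.7% of the 100-base windows of its transcript also occur in Trmt112 on the opposite strand.

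The glutathione peroxidase family held the largest single loss. Gpx7, an ER-resident member with little glutathione peroxidase activity that passes peroxide oxidation on to protein folding (chromosome 4, 108400390 to 108406961) counted 109, 148 and 108 fragments in WT but 0, 1 and 1 in Yme1l-/-. Set against 3 fragments per library, it was at least 43.2-fold lower in Yme1l-/- (edgeR adjusted p = 1.5e-08). Gpx7 passed the filter on low counts only through the WT libraries, so its call supports nothing beyond these values. Gpx8, a transmembrane ER member, was at 99.45, 106.4 and 88.88 CPM in WT and 64.78, 52.3 and 54.88 CPM in Yme1l-/-, which is 1.72-fold lower (-0.78 ± 0.09, log2 fold change ± SE, edgeR adjusted p = 3.0e-05). Gpx1, the main peroxidase of cytosol and mitochondria, was at 115.9 ± 6.93 and 115.5 ± 12.9 CPM (SD, n = 3) with overlapping libraries. It was not called, although it was called higher at 0.35 with the median of chromosome 9 removed.

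Gpx4, which reduces lipid hydroperoxides in membranes, was at 243.4, 226.0 and 204.5 CPM in WT and 361.4, 292.0 and 288.1 CPM in Yme1l-/-. It rose by 0.48 ± 0.10 on the log2 scale (SE, edgeR adjusted p = 0.00245). Of the 100-base windows of its transcript 48.4% also occur in pseudogene copies on the same strand, and the call was lost with the median of chromosome 10 removed, at 0.18. Gpx3, the secreted plasma form, had 1, 4 and 1 fragments in WT and none in Yme1l-/-, where 3 fragments would be 0.0589 to 0.0857 CPM, and was not tested.

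Of the superoxide dismutases, the mitochondrial form was called higher, the extracellular form lower, and the cytosolic form was not called. Sod2, the manganese enzyme of the mitochondrial matrix, was at 57.1, 55.93 and 51.36 CPM in WT and 72.78, 70.52 and 68.38 CPM in Yme1l-/-. It rose 1.29-fold (0.36 ± 0.05, log2 fold change ± SE, edgeR adjusted p = 8.5e-05). Sod1, the copper-zinc enzyme of the cytosol, was at 106.8 ± 5.98 and 116.8 ± 5.37 CPM (SD, n = 3) and missed the threshold (edgeR adjusted p = 0.0565, range over the alternatives 0.00908 to 0.208). Sod3, the extracellular enzyme, had 46, 54 and 53 fragments in WT and 29, 49 and 62 in the deeper Yme1l-/- libraries. This corresponded to 1.55 ± 0.143 and 1.01 ± 0.196 CPM (SD, n = 3) and a log2 fold change of -0.61 ± 0.21 (SE, edgeR adjusted p = 0.0222), a call kept in 8 of 13 alternatives. It was lost by DESeq2 at -0.62 (adjusted p = 0.0532), and by edgeR without WT replicate 2 or 3 or Yme1l-/- replicate 1 or 2, at -0.58 to -0.50. Cat, the peroxisomal catalase, fell from 57.99 ± 1.21 to 48.46 ± 2.41 CPM (SD, n = 3), by 0.26 on the log2 scale (edgeR adjusted p = 8.4e-04).

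Grouped by compartment, a list of 5 members took enzymes of the mitochondria, some of which also work elsewhere (Txn2, Txnrd2, Prdx3, Prdx5 and Sod2). Of the 4 tested, 3 were higher and 1 lower, beside 33.6% and 34.1% of all loci. Their summed level was 371.8, 353.1 and 339.1 CPM in WT and 525.1, 482.3 and 481.8 CPM in Yme1l-/-, with no overlap. The tally depends on the choice of members, since Gpx1 (not called), Gsr (lower) and Gpx4 (higher), which also have mitochondrial forms, were not in the list. A second list of 5 took secreted enzymes and peroxidases of the ER (Prdx4, Gpx3, Gpx7, Gpx8 and Sod3). The 4 tested were lower, beside 34.1% of all loci, but Gpx7 passed the filter on low counts only through the WT libraries. The summed level of the list was 233.3, 236.0 and 222.6 CPM in WT and 160.8, 130.4 and 133.1 CPM in Yme1l-/-, most of it Prdx4 and Gpx8. With the members anchored in the ER membrane (Hmox1, Mgst1 and Mgst3) added, 5 of 7 tested were lower and Hmox1 was higher. These groupings were made with earlier results known, and no test was made over them.

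**Figure D3:**
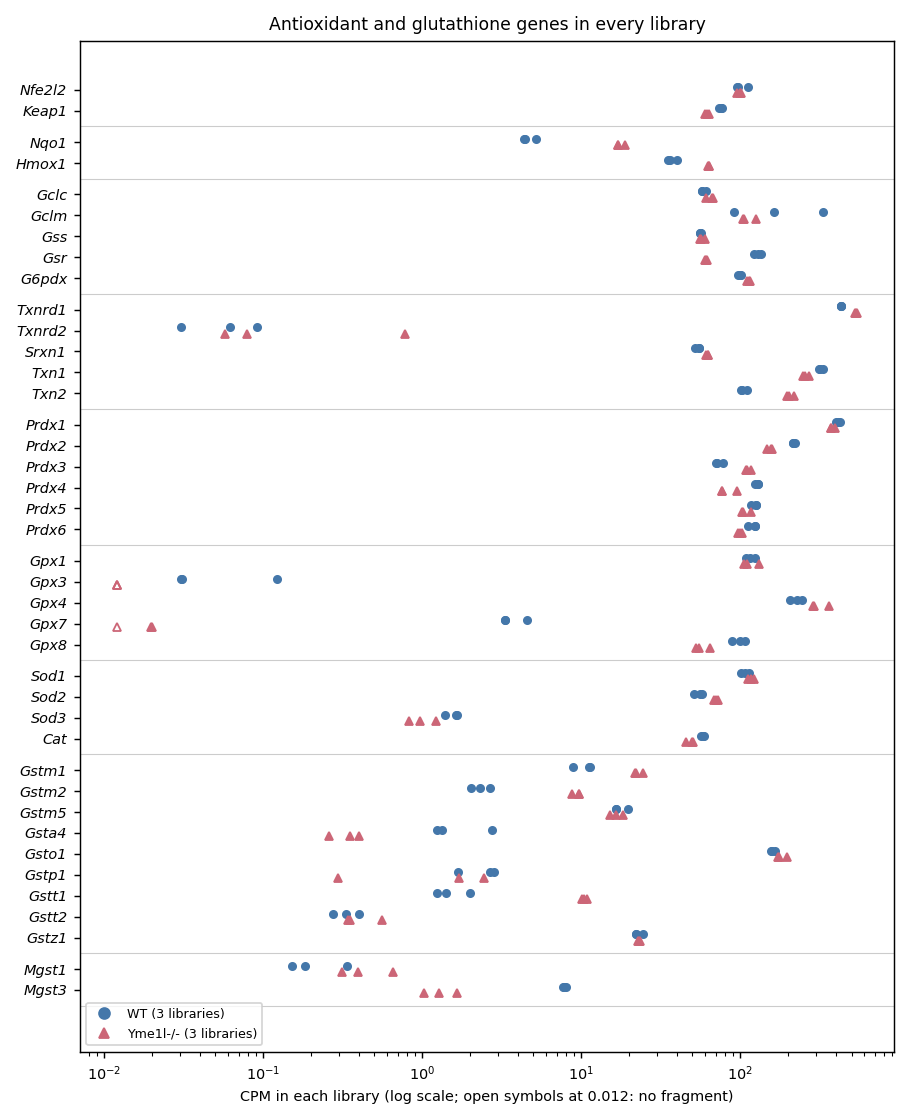
CPM of all 40 genes in each library on a log scale, with WT as circles and Yme1l-/- as triangles, and lines between the roles. Nqo1, Txn2, Gstm1, Gstm2 and Gstt1 have all triangles to the right of the circles, Gsr, Gpx7, Gpx8 and Mgst3 all to the left, and the WT circles of Gclm spread from 91.21 to 332.8 CPM.

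Glutathione S-transferases, which couple glutathione to electrophiles, made up 5 of the 8 calls of at least 2-fold. Of 9 cytosolic members tested, 4 were higher (44.4%) and 1 was lower (11.1%), beside 33.6% and 34.1% of all loci. Gstt1, a theta-class enzyme, was at 1.24, 1.99 and 1.41 CPM in WT and 10.37, 10.05 and 10.8 CPM in Yme1l-/-. It rose 6.73-fold, the largest rise among the members (2.75 ± 0.15, log2 fold change ± SE, edgeR adjusted p = 4.0e-08). Gstm2, a mu-class enzyme, was at 2.02, 2.29 and 2.66 CPM in WT and 8.77, 9.62 and 9.62 CPM in Yme1l-/-, 4.01-fold higher (2.01 ± 0.12, log2 fold change ± SE, edgeR adjusted p = 9.6e-08). Gstm1 was at 8.85, 11.18 and 11.27 CPM in WT and 22.0, 21.86 and 24.44 CPM in Yme1l-/-, 2.18-fold higher (1.13 ± 0.10, log2 fold change ± SE, edgeR adjusted p = 1.3e-06). Gsto1, an omega-class enzyme with thioltransferase activity, rose by 0.19 ± 0.05 on the log2 scale (SE, edgeR adjusted p = 0.00833), a call lost at 0.08 with its chromosome's median removed.

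Other transferases, some of the same classes, were not called. Gstm5 was at 17.59 ± 1.86 and 16.63 ± 1.59 CPM (SD, n = 3), and Gstt2 had 9 to 13 fragments per WT library and 12 to 28 per Yme1l-/- library. The libraries of both genes overlapped. Gstz1, the zeta-class enzyme of tyrosine breakdown, was at 22.77 ± 1.29 and 22.97 ± 0.295 CPM (SD, n = 3), and was called higher only at 0.45 with the median of chromosome 12 removed. Gstp1, the pi-class enzyme, had 88, 55 and 92 fragments in WT and 85, 85 and 15 in Yme1l-/- and was not called. Of its 100-base windows 52.8% also occur in the near-identical Gstp2, whose own row held at most 3 fragments per library, so the row may not hold all Gstp1 fragments.

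The transferases among the members that fell were Gsta4 and Mgst3. Gsta4 (chromosome 9, 78182774 to 78209349), an alpha-class enzyme that detoxifies 4-hydroxynonenal from lipid peroxidation, had 41, 90 and 43 fragments in WT and 14, 13 and 18 in Yme1l-/-. All Yme1l-/- libraries were lower, at a log2 fold change of -2.40 ± 0.36 (SE, edgeR adjusted p = 1.2e-04), and without WT replicate 2, the highest library, it was -1.94 and still called. Mgst3 (chromosome 1, 167371966 to 167393841), a microsomal enzyme of the MAPEG family with peroxidase activity, was at 7.64, 7.82 and 8.05 CPM in WT and 1.03, 1.27 and 1.65 CPM in Yme1l-/-. It was 5.87-fold lower (-2.55 ± 0.16, log2 fold change ± SE, edgeR adjusted p = 9.4e-08). Mgst1, its relative, had only 5, 11 and 6 fragments in WT and 11, 33 and 20 in Yme1l-/- and was not called (edgeR adjusted p = 0.0515, range over the alternatives 0.0306 to 0.237).

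**Figure D4:**
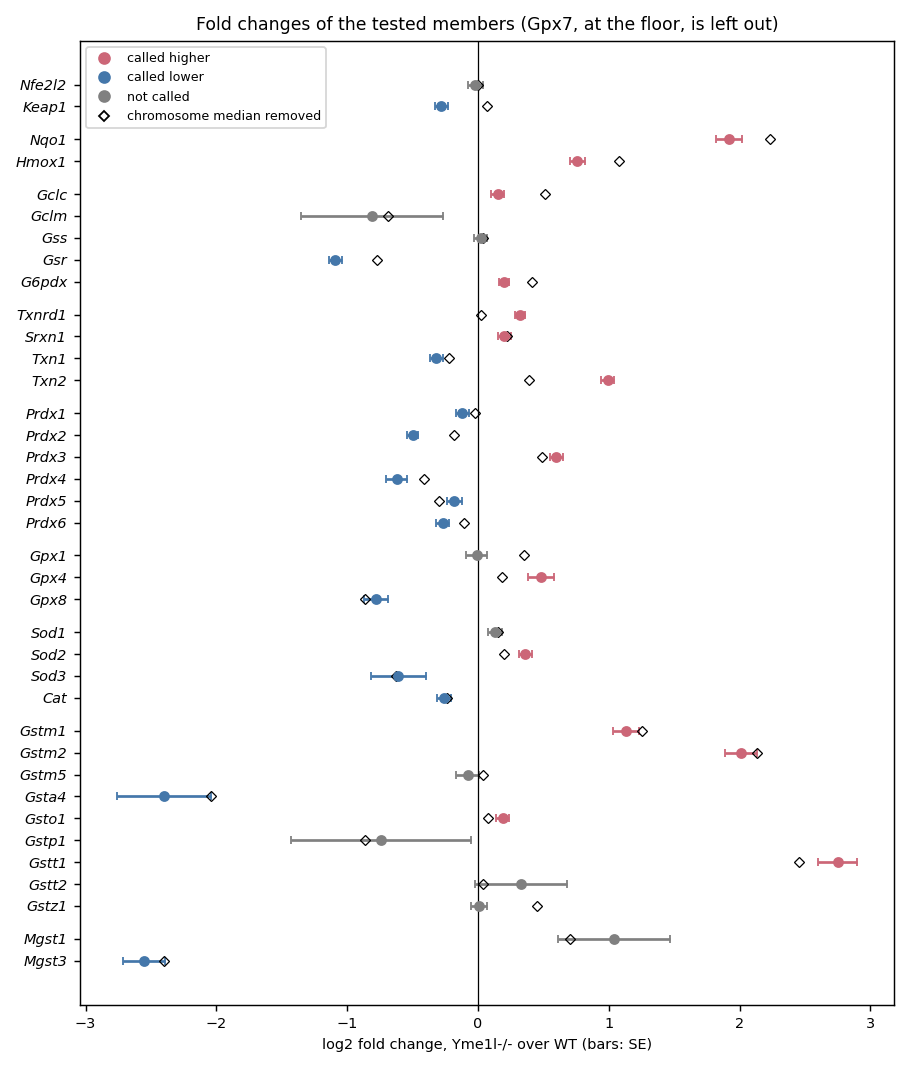
Log2 fold changes of 37 tested members (Yme1l-/- over WT, bars are SE) by role, coloured by call, with open diamonds for the value after removal of the chromosome's median. Gpx7, near 0 fragments in Yme1l-/-, is left out, Gstt1, Gstm2 and Nqo1 are highest and Mgst3 and Gsta4 lowest of those drawn, and the diamond lies at 0.07 for Keap1, 0.02 for Txnrd1 and 0.35 for Gpx1.

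The mu-class and theta-class genes lie in clusters, which were examined with the further transferase genes. In the mu cluster on chromosome 3 (107895821 to 108044894), 3 of 7 genes were higher, none was lower, 1 was not called and 3 were not tested, where 33.6% of all loci were higher. Besides Gstm1 and Gstm2 this was Gstm4, with 5, 3 and 5 fragments in WT and 169, 216 and 242 in Yme1l-/- (5.09 ± 0.22, log2 fold change ± SE, edgeR adjusted p = 5.1e-09). Gstm4 passed the filter on low counts only through the Yme1l-/- libraries, as did Mgst2, so the count for the cluster supports nothing beyond the values. Gstm6, not tested, had no fragment in WT and 8, 3 and 5 in Yme1l-/-. In the theta cluster on chromosome 10 (75774115 to 75837424), Gstt1 and the row of Gstt3 were higher, Gstt2 was not called and Gstt4 was not tested. The row of Gstt3 went from 15.7 ± 0.193 to 48.43 ± 1.33 CPM (SD, n = 3), 3.09-fold higher (1.63 ± 0.05, log2 fold change ± SE, edgeR adjusted p = 5.4e-10), but it also holds Ddt, a tautomerase gene, so the level of Gstt3 alone is not known. Mgst2, the third microsomal gene of this family, had 8, 3 and 1 fragments in WT and 41, 60 and 75 in Yme1l-/- (3.36 ± 0.42, log2 fold change ± SE, edgeR adjusted p = 2.6e-05), opposite in direction to Mgst3. Gstk1, the kappa-class enzyme, was the further transferase called lower, with 10, 24 and 14 fragments in WT and 7, 6 and 8 in Yme1l-/- (-1.64 ± 0.44, log2 fold change ± SE, edgeR adjusted p = 0.00644). It passed the filter only through the WT libraries, so its call, too, supports nothing beyond the values. Gstm4, Gstm6, Mgst2 and Gstk1 were singled out after their values were seen.

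**Figure D5:**
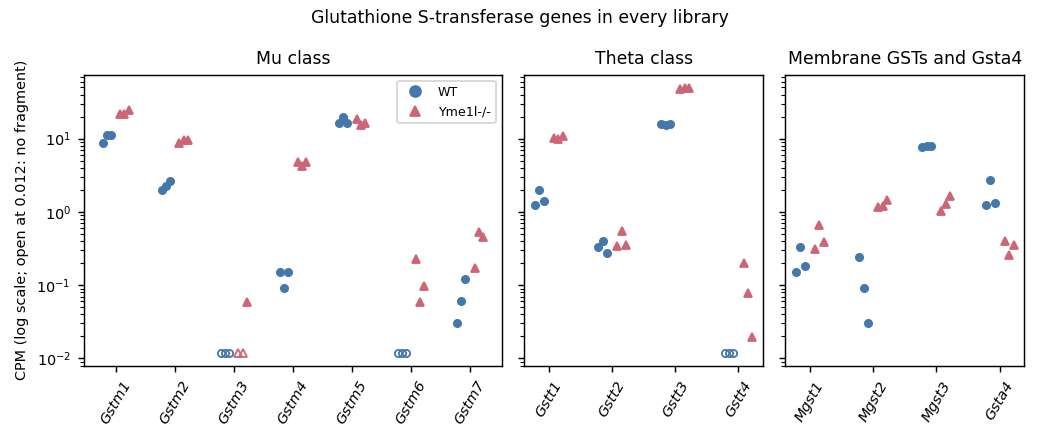
CPM per library (log scale) of mu-class, theta-class and microsomal glutathione S-transferase genes and Gsta4, with WT as circles and Yme1l-/- as triangles. In the mu and theta clusters Gstm1, Gstm2, Gstm4, Gstt1 and Gstt3 (with Ddt) lie higher in Yme1l-/- while Gstm5 and Gstt2 overlap. Gstm6, Gstm7 and Gstt4, with few fragments and not tested, also lie higher, and Mgst3 and Gsta4 lie lower.

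Levels were compared between genes by the authors' FPKM, which is scaled by transcript length and given as 1 combined value per genotype. Apart from Gclm, whose row holds the pseudogene, the highest members in WT were Prdx1 (381.4 FPKM), Txn1 (360.1), Gpx4 (290.3), Sod1 (227.1) and Prdx2 (195.8). In Yme1l-/- they were Gpx4 (408.8), Prdx1 (348.9), Txn1 (288.0), Sod1 (247.8) and Txn2 (186.3). Nqo1, Gstt1 and Gstm2, the genes with the largest rises, were low throughout, at 3.28, 1.96 and 2.60 FPKM in WT and 12.42, 11.93 and 10.42 FPKM in Yme1l-/-. Apart from Gsr, at 63.4 FPKM in WT, no member called at 2-fold or more was above 20.16 FPKM (Gstm1 in Yme1l-/-) in either genotype.

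Of 11 members that are textbook NRF2 targets (Nqo1, Hmox1, Gclc, Gclm, Gsr, G6pdx, Txnrd1, Srxn1, Txn1, Prdx1 and Gstm1), 7 were higher and 3 were lower, beside 33.6% and 34.1% of all loci. Only Nqo1 and Gstm1 were at least 2-fold higher, and Gsr was at least 2-fold lower. The summed level of the 11 was 1662.6 to 1892.1 CPM in WT and 1673.6 to 1698.4 CPM in Yme1l-/-, with overlap, and the upper end in WT came from the Gclm row. Without that row the sum was 1534.4 to 1571.4 CPM in WT and 1567.8 to 1592.3 CPM in Yme1l-/-, which overlapped narrowly. Of the 9 genes with an ARE core in the RefSeq window, 3 were higher (G6pdx, Txnrd1 and Srxn1), 1 was lower (Prdx1) and 5 were not called. The 5 include Gclm, whose row could not be read, and Mgst1, with only 5 to 33 fragments per library. The calls of Txnrd1 and Prdx1 were both lost with chromosome medians removed.

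A further 82 genes of these pathways were listed, of which 66 were tested, and 37 were higher and 14 lower in Yme1l-/-. Beside the 33.6% and 34.1% of all loci, these were 56.1% and 21.2%. The lists were chosen with earlier results known, and no test was made over them. Among the calls, Gstm4, Mgst2 and Gstk1 passed the filter on low counts only through the genotype where they were higher. Among 22 further NRF2 targets, 14 were higher and 3 lower of 21 tested. Cbr3 and its neighbour Cbr1, which encode carbonyl reductases, were at 3.62 ± 0.18 and 1.47 ± 0.11 (log2 fold change ± SE) from 0.66 and 3.10 CPM in WT, and were singled out after their values were seen. Blvrb, a biliverdin reductase downstream of haem oxygenase, rose by 1.05 ± 0.07, and Slc48a1, a haem transporter, by 1.31 ± 0.05 (log2 fold change ± SE), or 0.71 for Slc48a1 with the median of chromosome 15 removed. The ferritin chains were split, with Fth1 at 0.55 ± 0.05 and Ftl1 at -0.26 ± 0.05, both called. Slc7a11, the cystine transporter that feeds glutathione synthesis, was at 6.19 ± 1.09 and 6.75 ± 0.743 CPM (SD, n = 3) and was not called.

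Among 10 partners and regulators of NRF2, 6 were higher and 2 lower, beside 33.6% and 34.1% of all loci. With chromosome medians removed these were 4 higher and 3 lower, as Nfe2l1, the gene of the related factor NRF1, went from 0.32 to -0.04 (not called), and Maff, a small MAF protein gene, turned from 0.21, called higher, to -0.38, called lower (log2 fold changes). Sqstm1, encoding the autophagy receptor p62 that competes with NRF2 for KEAP1, was at 163.0, 164.4 and 151.7 CPM in WT and 293.8, 283.9 and 280.0 CPM in Yme1l-/-, 1.79-fold higher (edgeR adjusted p = 3.2e-08), and its log2 fold change of 0.84 was 0.48 with the median of chromosome 11 removed. Cul3, the scaffold of the ubiquitin ligase that KEAP1 serves, was at -0.41 ± 0.05 (log2 fold change ± SE), or -0.25 with the median of chromosome 1 removed, and called lower. Sqstm1, Cul3, Nfe2l1, Maff and the ferritin, Slc7a11, Nnt and Idh2 transcripts were named for their known roles, outside the naming rule and with their values seen.

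For glutathione turnover and cysteine supply, 5 genes were higher and 2 lower of 10 tested, so that 70% were called against 67.7% of all loci (33.6% higher and 34.1% lower, which also bear on the counts that follow). Cth, which makes cysteine from cystathionine, went from 8.57 ± 0.421 to 26.89 ± 1.66 CPM (SD, n = 3), 3.13-fold higher (edgeR adjusted p = 7.4e-09), and Chac1, which breaks down glutathione and is a target of ATF4, went from 8.73 ± 0.493 to 23.48 ± 0.666 CPM, 2.69-fold higher (edgeR adjusted p = 1.7e-08). Oplah, the oxoprolinase that returns glutamate from glutathione breakdown, was called lower at -1.62 ± 0.15 (log2 fold change ± SE, edgeR adjusted p = 2.9e-06) and was also singled out after its values were seen. Among glutaredoxins, methionine sulfoxide reductases and partners of thioredoxin, 6 were higher and 3 lower of 14. The selenoprotein genes Txnrd3 and Msrb1 rose by 1.23 ± 0.06 and 1.08 ± 0.06, and Sesn2, a stress-inducible sestrin, by 1.02 ± 0.07 (log2 fold change ± SE). For mitochondrial NADPH supply, 3 were higher and 3 lower of 6. Aldh1l2, the mitochondrial formyltetrahydrofolate dehydrogenase, was at 40.72, 45.45 and 46.43 CPM in WT and 215.7, 232.3 and 225.7 CPM in Yme1l-/-, 5.08-fold higher (2.35 ± 0.06, log2 fold change ± SE, edgeR adjusted p = 8.8e-11). Nnt, the transhydrogenase that makes NADPH in the matrix, was at 0.70 ± 0.05 and Idh2, the matrix isocitrate dehydrogenase, at -0.22 ± 0.04 (log2 fold change ± SE), both called. Of the 18 further transferases and peroxidases only 5 passed the filter, with 3 higher and 1 lower. Gstm4 and Mgst2 passed it only through the Yme1l-/- libraries and Gstk1 only through WT, so this count supports nothing beyond the values. Gpx2, Gpx5, Gpx6 and Gstp3 had no fragment in any library.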

How the data were processed

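Poly(A) RNA of 3 WT and 3 Yme1l-/- samples was sequenced as stranded read pairs. The authors mapped reads to mm10 (GRCm38) with HISAT 2.0.4, assembled transcripts with StringTie 1.3.3 and compared genotypes with Cuffdiff 2.2.1. The deposited table holds raw fragment counts per locus, not normalized, and how fragments with several map positions were counted is not given in the sources used here. The authors' comparison table gives FPKM as 1 combined value per genotype. Its fold changes and p-values were not used. Loci kept by filterByExpr (minimum count 10) were compared in R 4.3.3 with edgeR 4.0.16 (TMM scaling, glmQLFit with robust estimation, glmQLFTest, two-sided, no covariate), with Benjamini-Hochberg adjustment over all 13867 loci and a threshold of 0.05. The procedure was tested on simulated data. The 3 samples per genotype are independent cultures by the study's account, and p-values measure the spread between cultures, not between clones or animals. The SE was taken from the fold change and the F statistic. A gene at 3 counts or fewer in every library of a genotype was given a bound against 3 counts. Bounds cover counting error only. Gene positions and shared 100-base windows came from GENCODE M21 (GRCm38), and promoter windows from RefSeq (GRCm38.p6). The members and lists were chosen with earlier results of these data known. All members are named, and of the further genes those called with an absolute log2 fold change of at least 1 and a mean of at least 10 CPM, with exceptions stated. Alternatives were RLE and upper-quartile scaling, DESeq2 1.42.0, other filters, the replicate number as a block, removal of chromosome medians and leaving out each library. Leaving out members with shared sequence, leaving Gclm out of the NRF2 targets and widening the list of secreted and ER enzymes were added after seeing the data.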

Additional observations from a re-analysis of the deposited data

How the results depend on the processing

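The counts of members called stayed within 1.5 times of 14 higher and 14 lower in all 13 alternatives, and 19 of the 28 member calls were kept in every alternative that tested them. With chromosome medians removed 14 were higher and 11 lower, since 6 calls were lost (Keap1, Txnrd1, Prdx1, Prdx6, Gpx4 and Gsto1) and 3 were gained. The member median of 0.00 went to 0.06 under upper-quartile scaling and to 0.04 with chromosome medians removed. Among the members, signs reversed for Keap1, called lower at -0.28, and for values near 0. Under upper-quartile scaling Nfe2l2 was at 0.0358 and Gpx1 at 0.0537, and with chromosome medians removed Keap1 was at 0.0749, Gpx1 at 0.35 and Gstm5 at 0.0375. Leaving out a single library at a time, Nfe2l2 ranged from -0.0667 to 0.0512, Gss from -0.00647 to 0.0463, Gpx1 from -0.10 to 0.0553, Gstm5 from -0.15 to 0.00423 and Gstz1 from -0.0167 to 0.0586, none of them called. In these cases 13 to 15 members were higher and 11 to 13 lower. Without the 5 members that share a row or windows with other genes (Gclm, Prdx2, Prdx5, Gpx4 and Gstp1), 13 were higher and 12 lower.

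The replicate numbers did not pair the libraries: across loci, the departures from the genotype mean had correlations of 0.20, -0.16 and 0.048 between libraries of equal number, and 2 of 6 libraries correlated best with their own number. With the replicate number as a block 16 members were higher and 14 lower, with Sod1 at 0.13 and Mgst1 at 1.01 newly called. Sod1 was also called without WT replicate 1 (0.17) or Yme1l-/- replicate 2 (0.16), and Mgst1 without WT replicate 2 (1.45) or Yme1l-/- replicate 1 (1.22). Genes with a few fragments per library (Txnrd2, Gpx3, Gstt2, Mgst1) could not be resolved at this depth.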
